A study of Triticum aestivum with 15 samples.

Results

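The change in transcript levels between 36 and 48 hours after imbibition (HAI) was measured in whole germinating seeds of the bread wheat cultivar Jimai 20. The 3 arrays at 48 HAI, labelled P4, were set against the 3 arrays at 36 HAI, labelled P3, so 6 of the 15 arrays of the series carry the comparison. Seeds of both stages had first soaked for 12 hours, in sterile water per the labels and in distilled water in the dark per the study's methods, and were then kept on moist dishes. No further treatment is named. Both stages lie after root and shoot had come out of the seed, and in the later one the young shoot had begun to green. The other 9 arrays, at 0 HAI (P0), 12 HAI (P1) and 24 HAI (P2), entered the shared estimate of the spread. The labels call the 3 arrays of a stage biological replicates, and they say nothing of how many seeds were combined in each, so p-values measure the spread between these samples.

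Once root and shoot have come out, a cereal seed passes from germination proper to seedling growth. Cells of the root and shoot extend as their walls are loosened and rebuilt, the aleurone and scutellum digest the starch and protein of the endosperm, and plastids of the young leaf begin to assemble the photosynthetic apparatus. Transcripts stored in the dry seed, such as those for storage proteins and late embryogenesis abundant (LEA) proteins, are by then being replaced. In RNA from a whole seed, fewer cells of a type and less RNA per cell cannot be told apart.

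Each probe set was tested with limma on log2(MAS5 intensity + 16), and 6503 of 61115 probe sets, 10.6%, passed an adjusted p of 0.05 (Benjamini-Hochberg). At 48 HAI 3270 probe sets (5.35%) were called higher and 3233 (5.29%) were called lower than at 36 HAI, and the median log2 difference over all probe sets was 0.02. Without 48 HAI array 1, 2 or 3, or 36 HAI array 1 or 2, 2082, 2027, 2110, 2130 and 2174 were called higher, in that order. Large changes were mostly falls. At least 2-fold, 960 probe sets (1.57%) rose and 1481 (2.42%) fell. At least 4-fold, 59 (0.0965%) rose, or 89 without 36 HAI array 3, and 318 (0.520%) fell.

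These directions are relative to the total signal of each array, which MAS5 had made nearly equal. The poly-A control transcripts are meant to be added to RNA before labelling. At 48 HAI they read 1.62, 1.77 and 1.76 times their mean 36 HAI level, against 0.995, 1.01 and 0.995 at 36 HAI. Relative to that level they read 5.43, 5.94 and 5.89 at 0 HAI, and 1.69, 1.74 and 1.64 at 12 HAI. At 24 HAI they read 1.42, 1.47 and 1.46, so 36 HAI stood lowest of the 5 stages. The hybridization controls read 1.14, 1.31 and 1.15 times their mean 36 HAI level at 48 HAI, against 1.00, 1.25 and 0.797 at 36 HAI. Scaled to the poly-A controls, the median of all probe sets moved by -0.57 on the log2 scale, and 450 probe sets were called higher and 19959 lower. Scaled to the hybridization controls, it moved by -0.17, and 269 were called higher and 2185 lower. Higher calls were thus 50.3% of all calls as deposited, 2.20% under the first scaling and 10.96% under the second. Of the 76 called probe sets described singly below, the 54 that fell kept their sign under both scalings and 41 of them their call under the hybridization controls. The 22 that rose kept their sign under the hybridization controls, 15 did so under the poly-A controls, and 5 kept their call under each.

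Signs of RNA quality moved with the stage as well. The 3′ to 5′ signal ratio of the glucose-6-phosphate dehydrogenase control was 23.6, 25.1 and 37.1 at 48 HAI, against 18.4, 15.7 and 15.3 at 36 HAI. Of the 5 wheat control genes examined, this ratio and those of ubiquitin (0.822, 0.703 and 0.761 against 0.582, 0.602 and 0.661) and of the gapdh control (0.432, 0.527 and 2.24 against 0.0776, 0.0554 and 0.122) were higher at 48 HAI without overlap. The actin and ef1a ratios overlapped. The part of RNA quality in the results below was not tested. Of genes known from parts of the seed, PER1 (embryo and aleurone) averaged 8871 at 48 HAI and 11576 at 36 HAI, Em LOC543497 (embryo) 375 at 48 HAI and 900 at 36 HAI, and ALMT1 (root tip) 730 at 48 HAI and 1338 at 36 HAI. The called gliadin probe sets (starchy endosperm) averaged 4.68 to 118 at 48 HAI and 53.4 to 246 at 36 HAI, and those of LOC543214 and 1 of LOC543212 were under 32 on all arrays of 48 HAI. The Em gene CD490513 was under 32 at both stages. PER1, Em LOC543497, ALMT1 and these gliadins were all called lower, and many other members of their lists were not. The call of PER1 was lost without each array in turn other than 36 HAI array 3. In the storage protein list 13 of 17 probe sets did not pass, and 8 of the 17 had a positive sign. In the LEA, dehydrin and Em list 14 of 21 did not pass, and 9 of the 21 had a positive sign. None of the 23 histone probe sets (dividing cells) was called, and of 37 for photosynthesis (green tissue) 3 rose and 1 fell.

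The changes that ranked first in log2(intensity + 16) belonged to probe sets with no gene name in the tables used here. One strong fall was that of TaAffx.82031.1.S1_s_at, which read 9.24, 8.26 and 15.99 at 48 HAI, against 1997, 1826 and 1861 at 36 HAI. Since it was under 32, a level near background, on all arrays of 48 HAI, it was at least 59.2-fold lower (adjusted p = 4.5e-08). It was low before as well, with means of 21.5, 11.2 and 464 at 0, 12 and 24 HAI, so its signal stood high at 24 and 36 HAI only. TaAffx.107381.1.S1_at had a like course, with means of 4.27, 2.31 and 333 at the 3 earlier stages, and stood at 2.61, 3.94 and 0.9796 at 48 HAI, against 864, 839 and 945 at 36 HAI, so it was at least 27.6-fold lower (adjusted p = 6.8e-09). The largest rise on that scale was that of Ta.21646.1.S1_at, at 8922, 9195 and 9427 at 48 HAI, against 220, 233 and 482 at 36 HAI, a 29.8-fold difference (log2 4.90 ± 0.42 SE, adjusted p = 3.8e-05). It had been at most 105 on average at 0, 12 and 24 HAI. Ta.3249.1.S1_at read 205, 213 and 281 at 48 HAI, against 6.22, 25.0 and 8.85 at 36 HAI, and was at least 7.20-fold higher (adjusted p = 5.9e-05). Both rises kept their sign and their call under poly-A and hybridization scaling.

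A peak at 36 HAI was common among the strong falls. Of the 318 probe sets that fell at least 4-fold, 263 (82.7%) had their highest mean of the 5 stages at 36 HAI, against 13.98% of all probe sets tested. Among all 3233 that fell, 1599 (49.5%) had it at 36 HAI, 817 in the dry seed, 416 at 12 HAI and 401 at 24 HAI. A probe set that fell could not have its highest mean at 48 HAI, and one that rose could not have it at 36 HAI. Selection by a large step also favours a peak at its higher stage, so the share over all probe sets is not a like baseline. The shares here and below are a description. Of the 59 that rose at least 4-fold, 45 (76.3%) reached their highest mean at 48 HAI, against 15.7% of all probe sets tested. Among all 3270 that rose, 1665 (50.9%) had it at 48 HAI, 877 had it at 12 HAI and 694 in the dry seed.

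**Figure D1:**
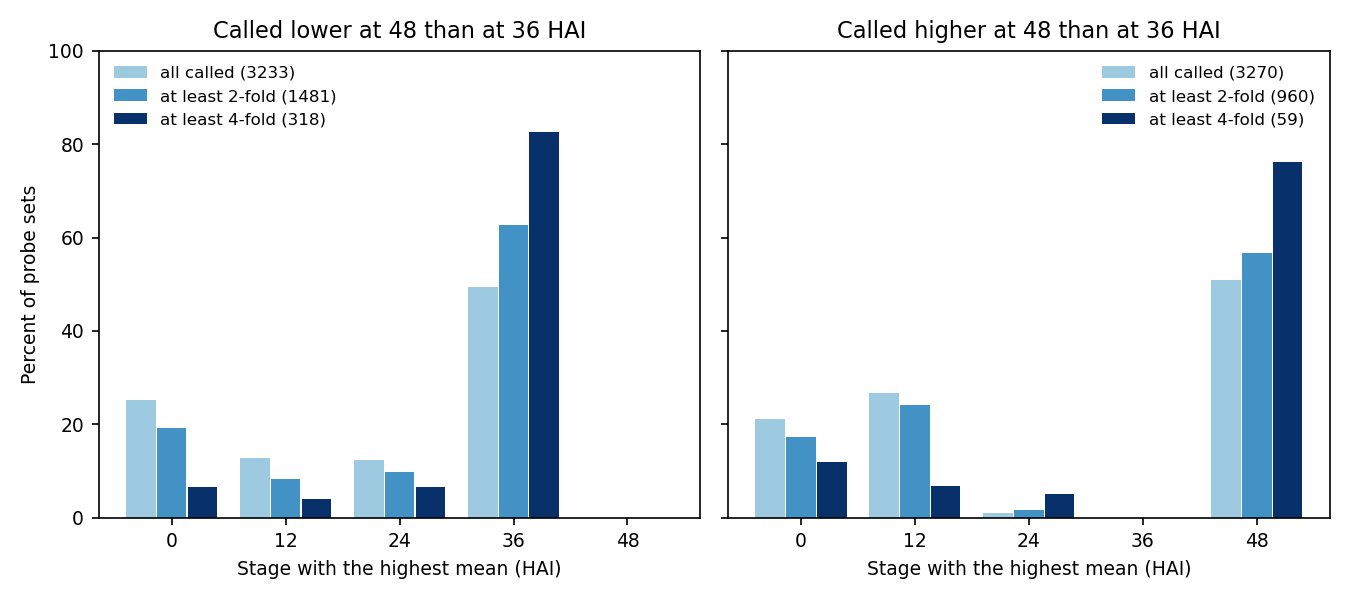
Percent of the probe sets called lower (left panel) and called higher (right panel) at 48 than at 36 HAI that had their highest mean intensity at each of the 5 stages, for all calls and for those at least 2-fold and 4-fold apart, with the number of probe sets in the legend. The darkest bar at 36 HAI on the left stands at 82.7%, and that at 48 HAI on the right at 76.3%.

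Signal was lost to near background in more probe sets than it appeared in. In 88 called probe sets the intensity was under 32 on all 3 arrays at 48 HAI and at least 64 on all 3 at 36 HAI, and in 26 the reverse held. The 88 were lower by at least 2.24-fold to at least 59.2-fold, with a median bound of 4.08-fold, and 65 of them had their highest mean at 36 HAI. In 17 of the 88 the means at 0, 12 and 24 HAI were all under 32 too. The 26 were higher by at least 2.13-fold to at least 7.20-fold, and 12 of them had their highest mean at 48 HAI. Of the 88, 3 had a gene symbol, and of the 26 none.

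The change after 36 HAI was tested against the change before it, as the contrast of both steps in 1 fit, and 3560 probe sets (5.83%) passed, or 898 under hybridization and 20538 under poly-A scaling, 2093 with array medians set equal and 5779 with an intensity trend in the variance. Of the probe sets called between 36 and 48 HAI, 1463 of the 3233 that fell and 1170 of the 3270 that rose passed. The contrast contains the difference by which these probe sets were called, so their passing is not separate evidence. The same holds for genes named below by that difference. Both steps share the arrays of 36 HAI, so an unusual level there would enter both. Without 36 HAI array 1 or 2, 1800 and 1783 probe sets passed.

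Gene names were sparse. Of the 61115 probe sets, 1273 had a gene symbol, of which 78 rose and 171 fell, against 5.35% and 5.29% of all probe sets, and their median log2 difference was -0.07. A name or description was at hand for 324 probe sets, of which 21 rose and 64 fell. Many of the descriptions are matches to rice genes that the study gives for probe sets it chose on these samples, so the share of calls among them is not independent evidence. The 285 probe sets assigned to 22 lists of function are described by their counts, without a test of any list. Each count stands beside 64 lower and 21 higher of the 324 named probe sets, and 5.29% and 5.35% of all.

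**Figure D2:**
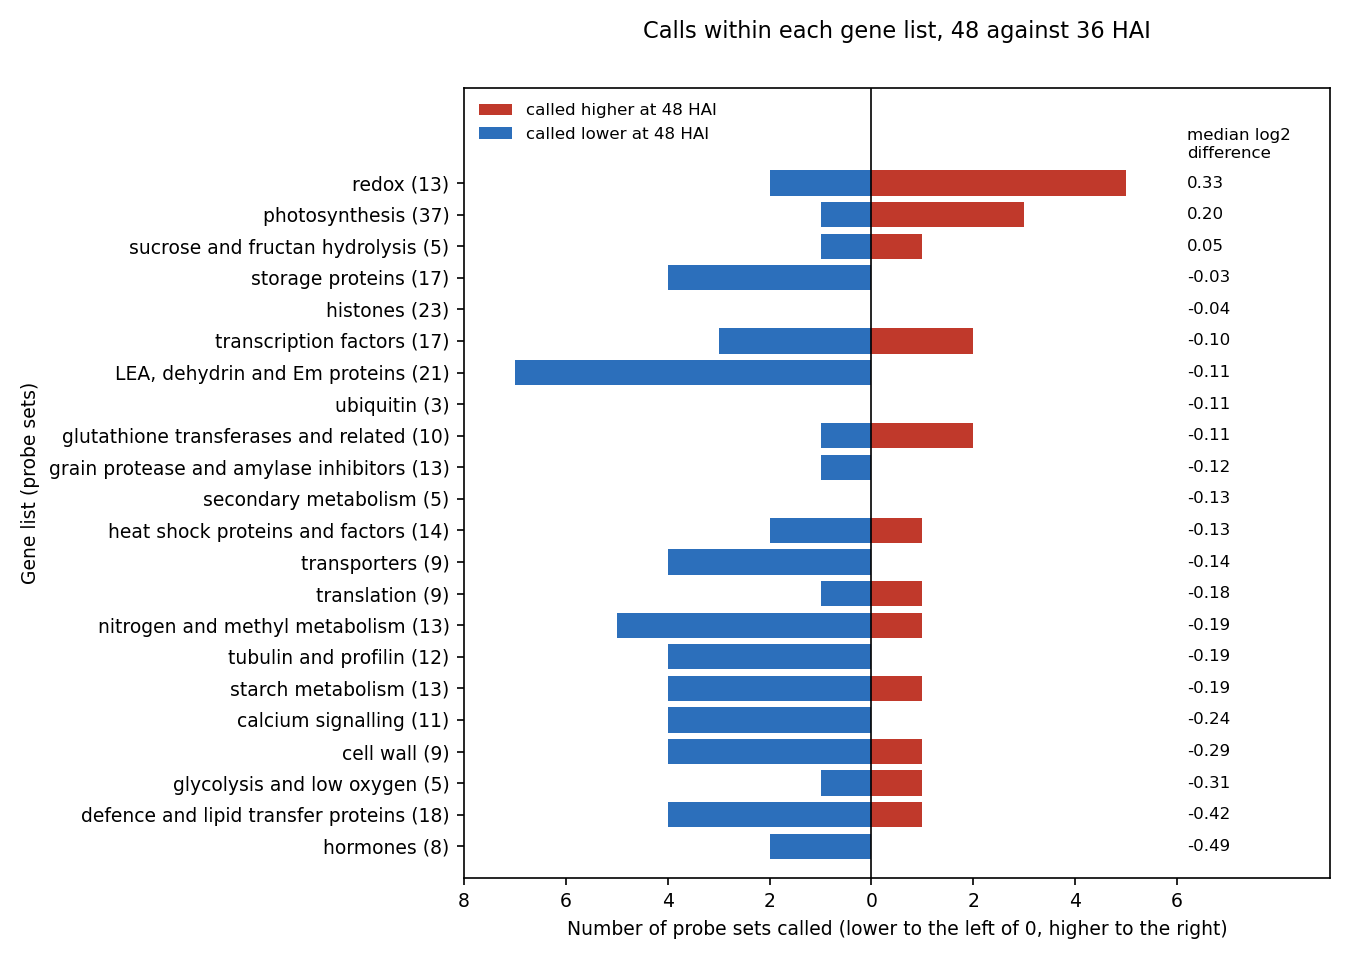
Number of probe sets of each gene list called higher (right of 0) and lower (left of 0) at 48 than at 36 HAI, with the size of the list in brackets and its median log2 difference at the right edge. The medians of the redox and photosynthesis lists stand at 0.33 and 0.20, which turn to -0.38 and -0.21 under poly-A scaling, and the hormone list the lowest, -0.49, and no histone probe set was called.

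Several genes of cell wall growth fell. Of 9 probe sets of the cell wall list, 4 fell and 1 rose, with a median log2 difference of -0.29 against 0.02 over all probe sets. A beta-expansin (LOC543145), of a family of proteins that loosen the wall for extension, read 1162, 1139 and 954 at 48 HAI, against 5504, 5517 and 5518 at 36 HAI. It was 5.04-fold lower (log2 -2.33 ± 0.18 SE, adjusted p = 1.7e-05), after standing at 177, 730 and 5324 on average at 0, 12 and 24 HAI. A COBRA-like gene (LOC543124), whose relatives guide the orientation of cellulose in Arabidopsis, read 1181, 1205 and 1363 at 48 HAI, against 3934, 4133 and 4045 at 36 HAI, and was 3.21-fold lower (log2 -1.68 ± 0.14 SE, adjusted p = 2.8e-05). The arrays of the stages were far apart in both genes, and both had their highest mean at 36 HAI. XTH, a xyloglucan endotransglucosylase that cuts and rejoins xyloglucan chains, read 672, 807 and 721 at 48 HAI, against 2247, 2040 and 1825 at 36 HAI (adjusted p = 0.023), and its call was lost without each array in turn other than 36 HAI array 3, with an adjusted p of up to 0.0775. A cellulose synthase gene (LOC542808) averaged 2906 ± 156 at 48 HAI and 4846 ± 167 at 36 HAI (SD, n = 3 arrays each), a 1.66-fold fall with an adjusted p of 0.0020 in limma. The member that rose matches rice BRU1, described as a brassinosteroid-regulated protein (CA686606), at 5985, 5886 and 6176 against 4063, 4273 and 4211 (adjusted p = 0.023), and its difference of 0.52 turned to -0.25 under poly-A scaling. Its call was lost without any 1 of the 6 arrays, with an adjusted p of up to 0.0741. A second probe set of that gene did not pass. For the expansin and the COBRA-like gene the contrast of both steps was -2.38 and -2.14 on the log2 scale (adjusted p = 0.0011 and 0.00037). It contains the fall after 36 HAI by which they were named, so it is not a separate result.

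Of 12 probe sets for tubulins and profilin, which build and regulate the microtubules and actin filaments of growing cells, 4 fell and none rose, and all 12 had a negative sign. A probe set of profilin read 6841, 6480 and 6787 at 48 HAI, against 14675, 14602 and 12259 at 36 HAI (log2 -1.04 ± 0.11 SE, adjusted p = 0.00017), while another of the same gene differed by -0.13 and did not pass. Beta-tubulin Tubb4 was 1.69-fold lower at 3035, 3157 and 2631 against 5239, 4699 and 5019 (adjusted p = 0.0027). Of the 4 probe sets of Tubb5, 2 fell, by 1.69-fold and 1.56-fold, and the call of the first was lost without 36 HAI array 1 or 2 or 48 HAI array 3, with an adjusted p of up to 0.0667.

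Histones, which package new DNA in dividing cells, showed no called change. None of the 23 histone and related chromatin probe sets passed limma at an adjusted p of 0.05, with differences between -0.38 and 0.46, while they stood at a median of 14086 at 48 HAI. At an unadjusted p of 0.05, 4 passed, and 3 were called with an intensity trend in the variance (2 higher and 1 lower). H2A-9 read 14651, 17788 and 15104 at 48 HAI, against 15010, 14397 and 12393 at 36 HAI, so its arrays overlapped (log2 0.18 ± 0.29 SE, which turned to -0.07 and -0.59 under hybridization and poly-A scaling). A linker histone (LOC606312) read 24666, 24386 and 21740 at 48 HAI, against 16343, 20490 and 19227 at 36 HAI, without overlap but with an adjusted p of 0.17, and its difference of 0.34 turned to -0.44 under poly-A scaling. Under that scaling 20 of the 23 were called lower, against 19959 of all 61115 probe sets.

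**Figure D3:**
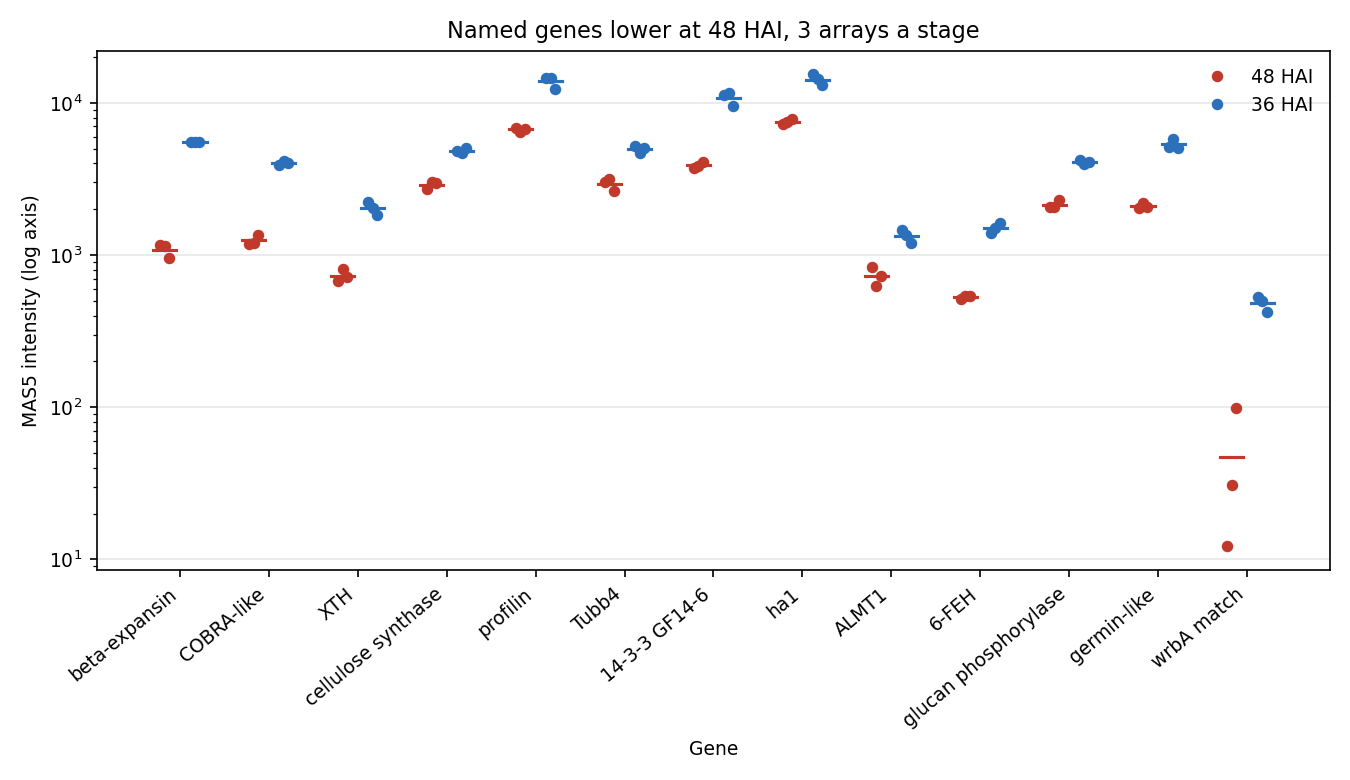
MAS5 intensity on a log axis of 13 named genes that fell, with 3 arrays at 48 HAI (red, left of each pair) and 3 at 36 HAI (blue, right). Points are arrays and short lines are means, and the arrays of the stages do not overlap in any of the 13 genes.

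Some genes of membrane transport and of signalling were also called lower. Of 9 transporter probe sets 4 fell and none rose, against 64 and 21 of the 324 named probe sets. The plasma membrane proton pump ha1, an H+-ATPase that acidifies the wall space, read 7295, 7486 and 7846 at 48 HAI, against 15404, 14268 and 13022 at 36 HAI, without overlap (log2 -0.91 ± 0.11 SE, adjusted p = 0.00031). Of its 3 probe sets 2 fell, and the third differed by 0.19 with overlapping arrays, turning to -0.58 under poly-A scaling. ALMT1, a malate channel of root tips known from aluminium tolerance, read 838, 628 and 725 at 48 HAI, against 1466, 1347 and 1200 at 36 HAI (adjusted p = 0.0029). It had stood between 321 and 378 on average at the 3 earlier stages, and the step after 36 HAI differed from the step before by -2.80 on the log2 scale (adjusted p = 8.3e-05). A gene with a heavy metal-associated domain (CD921955) fell 1.39-fold (adjusted p = 0.038), a call lost without 36 HAI array 2 or 3 or 48 HAI array 2 or 3, with an adjusted p of up to 0.145.

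Both probe sets of the 14-3-3-like protein GF14-6 (LOC543463), of a family that binds phosphorylated proteins, were called. They read 3740, 3855 and 4070 at 48 HAI, against 11218, 11656 and 9555 at 36 HAI in the first, and 4077, 4263 and 4066 against 11519, 12538 and 9673 in the second. The falls were 2.76-fold and 2.70-fold (adjusted p = 2.4e-05 and 7.4e-05). Of 11 calcium signalling probe sets 4 fell and none rose. An EF-hand gene (CA651217) read 514, 557 and 516 at 48 HAI, against 1048, 1023 and 1058 at 36 HAI (adjusted p = 0.012). CCD1, a calcium-binding protein, was 1.65-fold lower (adjusted p = 0.0025), and the calcium-dependent protein kinase LOC780573 fell 1.60-fold in 1 of its 2 probe sets.

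Hormone genes had the lowest median of the lists, -0.49 on the log2 scale over 8 probe sets, of which 2 fell and none rose. 12-oxophytodienoate reductase (CN012317), an enzyme family that acts in jasmonate synthesis, read 2822, 3330 and 3772 at 48 HAI, against 6695, 6203 and 5804 at 36 HAI (adjusted p = 0.0037). GA20ox1d, a gibberellin 20-oxidase that makes the precursors of active gibberellins, read 286, 223 and 189 at 48 HAI, against 353.1, 334 and 388 at 36 HAI (adjusted p = 0.031), and its call was lost without each array in turn other than 48 HAI array 1, with an adjusted p of up to 0.120.

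Reserve genes moved in both directions. Of 13 starch metabolism probe sets 4 fell and 1 rose. Alpha-glucan phosphorylase (LOC542862), which releases glucose 1-phosphate from starch, read 2081, 2074 and 2286 at 48 HAI, against 4205, 3944 and 4086 at 36 HAI, a 1.89-fold fall (adjusted p = 0.00055). At 12 HAI it had averaged 401, and the step after 36 HAI differed from the step before by -1.94 on the log2 scale (adjusted p = 0.00026). The plastid glucose-6-phosphate translocator (LOC542971), which carries hexose phosphate across the plastid envelope, fell 1.54-fold (adjusted p = 0.0019). The member that rose was a large subunit of glucose-1-phosphate adenylyltransferase (LOC100037637), the enzyme that forms the glucosyl donor of starch synthesis, at 776, 807 and 1044 against 537, 427 and 528 (adjusted p = 0.019, with a log2 difference of 0.03 under poly-A scaling), with a call lost without 36 HAI array 2 (adjusted p = 0.0774) or 48 HAI array 3 (adjusted p = 0.0802). The alpha-amylase amy1 read 111, 78.4 and 74.7 at 48 HAI, against 29.3, 64.8 and 65.2 at 36 HAI, and did not pass (adjusted p = 0.47). This dim probe set does not stand for the enzyme family. The study's gene table gives other alpha-amylase entries at far higher values at both stages, each lower at 48 than at 36 HAI. The study's methods describe its expression values as geometric means of Robust Multichip Average signals, whereas the values here are MAS5 intensities. Those entries were not among the accessions matched here.

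The fructan exohydrolases, which split fructose from fructans, parted. 6-FEH read 511, 541 and 538 at 48 HAI, against 1400, 1499 and 1626 at 36 HAI (log2 -1.48 ± 0.11 SE, adjusted p = 1.3e-05), having peaked at a mean of 2257 at 24 HAI. 1-FEH read 11395, 11906 and 11160 at 48 HAI, against 6417, 7472 and 7687 at 36 HAI (log2 0.68 ± 0.13 SE, adjusted p = 0.0051), with its highest mean at 48 HAI. The difference of 1-FEH turned to -0.10 under poly-A scaling, while 6-FEH stayed lower. The other 2 probe sets of 6-FEH did not pass.

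Some storage protein transcripts fell further toward background. Of 17 probe sets 4 fell and none rose, against 64 and 21 of the 324 named ones. Their median of -0.03 stood near that of all probe sets, and 7 of the 17 were under 32 at both stages. A gliadin (LOC543212) read 4.26, 3.84 and 16.2 at 48 HAI, against 91.2, 124 and 189 at 36 HAI, and was at least 4.02-fold lower (adjusted p = 0.00018), against 5072 on average in the dry seed. A second probe set of that gene fell 2.70-fold (adjusted p = 0.017), or with an adjusted p of 0.0627 without 36 HAI array 3. The gamma-gliadin LOC543214 was at least 1.56-fold lower, at 3.27, 5.70 and 5.07 against 81.5, 44.1 and 34.7 (adjusted p = 0.00081). The gliadin LOC543211 read 103, 134 and 115 at 48 HAI, against 264, 242 and 232 at 36 HAI (adjusted p = 0.00065). Summed over the list, the intensity was 4462 to 4852 at 48 HAI and 4913 to 5478 at 36 HAI. Serpin-Z1C, a protease inhibitor of the grain, read 5.32, 49.1 and 32.7 at 48 HAI, against 81.6, 103 and 81.2 at 36 HAI (adjusted p = 0.029), and was the 1 called member of 13 inhibitor probe sets. Its call was lost without 48 HAI array 1 or any 1 array of 36 HAI, with an adjusted p of up to 0.0951.

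Of 21 probe sets of LEA, dehydrin and Em proteins, which protect the dry embryo, 7 fell and none rose, and 4 fell without 36 HAI array 2 or 48 HAI array 2. With array medians set equal 3 fell, and 2 in a fit on the 6 arrays alone. All 5 called probe sets of Em belonged to LOC543497 and LOC543480, the early methionine-labelled proteins of the mature embryo. Em LOC543497 read 368, 376 and 380 at 48 HAI, against 844, 836 and 1021 at 36 HAI (log2 -1.22 ± 0.13 SE, adjusted p = 0.00016). It had averaged 74153 in the dry seed, and its fall after 36 HAI was smaller than that before, by 1.99 on the log2 scale (adjusted p = 0.00044). A second probe set of LOC543497 was lower with an adjusted p of 0.031, a call lost without 36 HAI array 1 or 2 or 48 HAI array 1 or 2, with an adjusted p of up to 0.119. Em LOC543480 was 2.21-fold lower (adjusted p = 0.0011). The Em gene CD490513 read 11.6, 23.2 and 4.13 at 48 HAI, against 3.95, 5.37 and 6.55 at 36 HAI, so it was under 32 on all 6 arrays and no fold is given. Lea14-A (CD908263) read 1744, 1827 and 2079 at 48 HAI, against 2990, 2648 and 2751 at 36 HAI (adjusted p = 0.010). The summed intensity of the list overlapped between the stages, at 37756 to 43387 at 48 HAI against 35866 to 44519 at 36 HAI, and its brightest members, LEA1, the LEA gene LOC543084 and Rab15, did not pass.

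Of 14 probe sets of heat shock proteins and factors 2 fell and 1 rose, against 64 and 21 of the 324 named probe sets. A class II small heat shock protein (LOC543421), a chaperone that is abundant in dry seeds, read 267, 181 and 226 at 48 HAI, against 394, 427 and 362 at 36 HAI (adjusted p = 0.0049). The small heat shock protein hsp16.9A fell 1.61-fold (adjusted p = 0.034), a call lost without each array in turn other than 48 HAI array 2, with an adjusted p of up to 0.126. Hsp20 LOC543416 rose 1.71-fold, at 604, 577 and 564 against 377, 283 and 347 (adjusted p = 0.0061, with a difference of 0.03 on the log2 scale under poly-A scaling), far under its mean of 5130 in the dry seed.

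**Figure D4:**
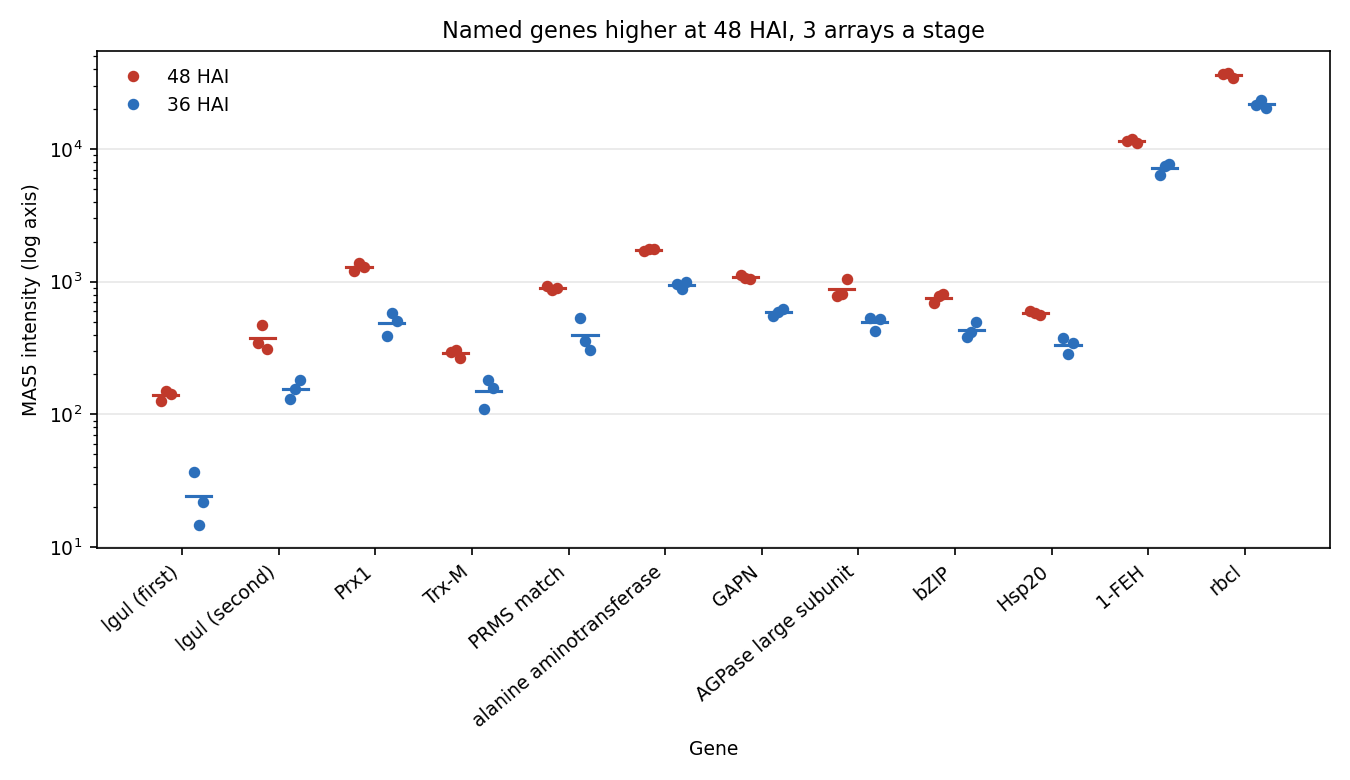
MAS5 intensity on a log axis of 12 probe sets of named genes that rose, with 3 arrays at 48 HAI (red, left of each pair) and 3 at 36 HAI (blue, right). Points are arrays and short lines are means. The arrays of the stages do not overlap, and under poly-A scaling 1-FEH and rbcl at the right turn to -0.10 and -0.05 on the log2 scale.

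The redox list had a median difference of 0.33 on the log2 scale, which turned to -0.38 under poly-A scaling. Of its 13 probe sets 5 rose and 2 fell. Without 36 HAI array 1 or 48 HAI array 2, 2 rose, without 36 HAI array 3 or 48 HAI array 1 or 3, 3 rose, and without each array in turn other than 36 HAI array 3, 1 fell. Prx1 rose in 3 of its 4 probe sets, by 2.61-fold, 2.75-fold and 2.93-fold. The brightest read 1200, 1389 and 1294 at 48 HAI, against 390, 577 and 509 at 36 HAI (log2 1.38 ± 0.22 SE, adjusted p = 0.0020), and it kept its call under both control scalings and without each array in turn. The other 2 lost theirs, with an adjusted p of up to 0.138, without each array in turn, except that 1 of them kept it without 36 HAI array 2. Trx-M, a plastid thioredoxin that passes electrons from ferredoxin to target enzymes, read 294, 306 and 264 at 48 HAI, against 109, 181 and 159 at 36 HAI (adjusted p = 0.015), a call lost without 36 HAI array 1 (adjusted p = 0.0612) or 48 HAI array 2 (adjusted p = 0.057). The chloroplast peroxiredoxin LOC542768, which reduces peroxides, read 10514, 10860 and 10821 at 48 HAI, against 7468, 6917 and 7190 at 36 HAI (adjusted p = 0.0036), and its difference of 0.58 turned to -0.20 under poly-A scaling. PER1, a seed peroxiredoxin of embryo and aleurone, fell by 0.38 on the log2 scale (adjusted p = 0.045), a call lost without each array in turn other than 36 HAI array 3, with an adjusted p of up to 0.157. A germin-like protein (LOC543438) read 2033, 2193 and 2072 at 48 HAI, against 5139, 5819 and 5089 at 36 HAI (log2 -1.34 ± 0.13 SE, adjusted p = 8.7e-05).

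Genes of photosynthesis were higher in sign more often than called. Of 37 probe sets 26 had a positive sign, 3 rose and 1 fell, while of all 61115 probe sets 31391 had a positive sign, 5.35% rose and 5.29% fell. The median was 0.20 on the log2 scale, which turned to -0.21 under poly-A scaling and was 0.01 without 48 HAI array 1. In the list 18 probe sets were under 32 at both stages, and over those with a mean over 32 in a stage the median was 0.48. The summed intensity of the list was 65294 to 69704 at 48 HAI and 38211 to 44940 at 36 HAI. Most of that sum came from 2 bright probe sets of rbcl, the large subunit of Rubisco, the enzyme that fixes carbon dioxide. The brighter read 36502, 37111 and 34230 at 48 HAI, against 21357, 23448 and 20448 at 36 HAI (log2 0.73 ± 0.11 SE, adjusted p = 0.0016), and had averaged 33504 at 24 HAI. The other read 26720, 26272 and 24974 at 48 HAI, against 18420, 17082 and 13916 at 36 HAI (adjusted p = 0.0070). Under poly-A scaling the differences of these 2 turned to -0.05 and -0.11. The symbol rbcl is shared by 28 probe sets, of which 16 were under 32 at both stages, and among the dimmer ones 1 rose and 1 fell. The first read 125, 121 and 120 at 48 HAI, against 4.55, 9.23 and 57.1 at 36 HAI (adjusted p = 0.043), a call lost without each array in turn other than 36 HAI array 3, with an adjusted p of up to 0.159. The second read 8.79, 12.2 and 9.02 at 48 HAI, against 38.3, 52.3 and 33.6 at 36 HAI (adjusted p = 0.015), a call lost without 36 HAI array 2 or 48 HAI array 1 or 3, with an adjusted p of up to 0.0637.

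The other genes of the list did not pass, though several had no overlap. A lack of overlap alone says little, since of all 61115 probe sets 9760 were higher and 8645 lower without overlap. PsbO, of the oxygen-evolving complex of photosystem II, read 1083, 976 and 1061 at 48 HAI, against 714, 757 and 798 at 36 HAI (adjusted p = 0.083). PsbP of the same complex read 1160, 1102 and 1111 at 48 HAI, against 538, 600 and 481 at 36 HAI (log2 1.04 ± 0.49 SE, adjusted p = 0.24), and petC, the Rieske iron-sulfur protein of the cytochrome b6f complex, read 1188, 1124 and 1288 against 883, 931 and 710 (adjusted p = 0.53). All 3 had their highest mean at 48 HAI. Under poly-A scaling the differences of PsbO and petC turned to -0.31 and -0.25, and that of PsbP was 0.28. The SE in these tests pools the spread of all stages, the earlier ones included. Within 36 and 48 HAI the arrays of PsbP lay close together, so its failure to pass does not show that the levels were alike. Fitted on the arrays of 36 and 48 HAI alone, 4 probe sets of the list were called higher and 1 lower.

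A rise from near background was that of lgul, lactoylglutathione lyase (glyoxalase I), which detoxifies methylglyoxal with glutathione. A probe set that had averaged 3.59 in the dry seed read 127, 151 and 143 at 48 HAI, against 36.8, 14.7 and 22.0 at 36 HAI, where 2 arrays were under 32. It was 3.95-fold higher in intensity + 16 (log2 1.98 ± 0.25 SE, adjusted p = 0.00048), and it kept its call under both control scalings. The second lgul probe set read 344, 472 and 310 at 48 HAI, against 130, 157 and 181 at 36 HAI (adjusted p = 0.026), a call lost without 36 HAI array 1 or 2 or 48 HAI array 1 or 2, with an adjusted p of up to 0.104. In the same list of 10 probe sets the glutathione transferase GSTF2 fell 1.66-fold, at 11032, 10858 and 10987 against 21507, 18788 and 14803 (adjusted p = 0.0060).

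In primary metabolism GAPN, the NADP-dependent glyceraldehyde-3-phosphate dehydrogenase, read 1118, 1064 and 1054 at 48 HAI, against 551, 596 and 626 at 36 HAI (log2 0.85 ± 0.15 SE, adjusted p = 0.0031), and had averaged 3385 at 12 HAI. Under poly-A scaling its log2 difference was 0.09. Phosphoglycerate mutase (LOC543487) read 603, 588 and 548 at 48 HAI, against 797, 1034 and 1468 at 36 HAI, with an adjusted p of 0.050 that rose to at least 0.103 without each array in turn other than 36 HAI array 1. Alanine aminotransferase (LOC543047), which moves amino groups between alanine and glutamate, read 1697, 1770 and 1765 at 48 HAI, against 963, 884 and 1003 at 36 HAI (adjusted p = 0.00082), with its highest mean at 48 HAI and a log2 difference of 0.10 under poly-A scaling. It was the 1 member of 13 in the nitrogen and methyl metabolism list that rose. In that list 5 fell, or 3 without 36 HAI array 1 or 2 or 48 HAI array 1 or 2. Phosphoglycerate dehydrogenase (BJ320120), which opens serine synthesis, fell in all 3 of its probe sets, at 4644, 4992 and 4836 against 8495, 8368 and 8130 in the brightest (adjusted p = 0.00062). PEAMT1, a phosphoethanolamine methyltransferase of choline synthesis, read 5791, 5657 and 5525 at 48 HAI, against 9456, 9110 and 8475 at 36 HAI (adjusted p = 0.0055).

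Of 18 probe sets of defence and lipid transfer proteins 4 fell and 1 rose, against 64 and 21 of the 324 named probe sets. In this list 2 fell without 36 HAI array 1. The rise was that of LOC543422, which matches a pathogenesis-related protein (PRMS), at 928, 862 and 892 at 48 HAI, against 534, 355 and 306 at 36 HAI (log2 1.17 ± 0.20 SE, adjusted p = 0.0028). It had averaged 7.94 at 12 HAI. Wheat germ agglutinin WGA2, a chitin-binding lectin of the embryo, read 469, 533 and 631 at 48 HAI, against 1090, 959 and 893 at 36 HAI (adjusted p = 0.0027). The lipid transfer protein LTP3 fell 1.54-fold (adjusted p = 0.0043). Another lipid transfer protein (LOC543420) read 485, 333 and 360 at 48 HAI, against 1065, 935 and 1113 at 36 HAI (adjusted p = 0.038), and its call was lost without any 1 of the 6 arrays, with an adjusted p of up to 0.122. The thionin TTHV read 10.2, 2.80 and 3.43 at 48 HAI, against 72.7, 20.4 and 58.9 at 36 HAI, and was at least 1.39-fold lower (adjusted p = 0.012, or 0.0555 without 36 HAI array 1).

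Among 17 transcription factor probe sets 2 rose and 3 fell, against 21 and 64 of the 324 named probe sets. Without 36 HAI array 2 or 48 HAI array 1 or 2, 1 fell, without 36 HAI array 1 or 48 HAI array 3, 1 rose, and in a fit on the 6 arrays alone 1 rose and none fell. A bZIP factor (CD373723) read 686, 776 and 804 at 48 HAI, against 382, 415 and 498 at 36 HAI (adjusted p = 0.012, or 0.0504 without 36 HAI array 1), with a log2 difference of 0.79 that was 0.04 under poly-A scaling. LOC543014, whose rice match is the AP2 factor BABY BOOM 2, named for its part in embryo formation, rose 1.40-fold at 1839, 1860 and 1931 against 1362, 1208 and 1438 (adjusted p = 0.017), and turned to -0.28 under poly-A scaling. Its call was lost without 36 HAI array 2 or 48 HAI array 2 or 3, with an adjusted p of up to 0.0708. A Myb-like gene (CA608693) read 41.3, 31.0 and 108 at 48 HAI, against 122, 131 and 125 at 36 HAI (adjusted p = 0.038), a call lost without each array in turn other than 48 HAI array 3, with an adjusted p of up to 0.143. An AP2 gene (CA688294) read 39.5, 21.3 and 49.1 at 48 HAI, against 97.0, 69.8 and 136 at 36 HAI (adjusted p = 0.011), after 969 in the dry seed.

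Outside the lists, a flavoprotein matching wrbA (BJ294874), of a family of quinone reductases, was called lower, at 12.1, 30.7 and 98.4 against 534, 501 and 420 (log2 -3.23 ± 0.47 SE, adjusted p = 0.0012), with a wide spread at 48 HAI, where 2 arrays were under 32. In translation, the cap-binding protein NCBP fell 1.64-fold (adjusted p = 0.0012) and the beta chain of phenylalanyl-tRNA synthetase rose 1.32-fold (adjusted p = 0.043), turning to -0.37 under poly-A scaling and losing its call without any 1 of the 6 arrays, with an adjusted p of up to 0.126. A fixed set of 14 accessions, of genes that the study lists as key genes or measured by quantitative PCR, was matched to probe sets here. This set leaves out others of the study's gene table, such as its alpha-amylase and alcohol dehydrogenase entries. Of the 18 probe sets of the 14 matched accessions, 3 fell, which were Lea14-A, the AP2 gene and the EF-hand gene CA649522 (adjusted p = 0.045, and up to 0.127 without any 1 of the 6 arrays), and none rose. The other 15 differed by -0.39 to 0.48.

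**Figure D5:**
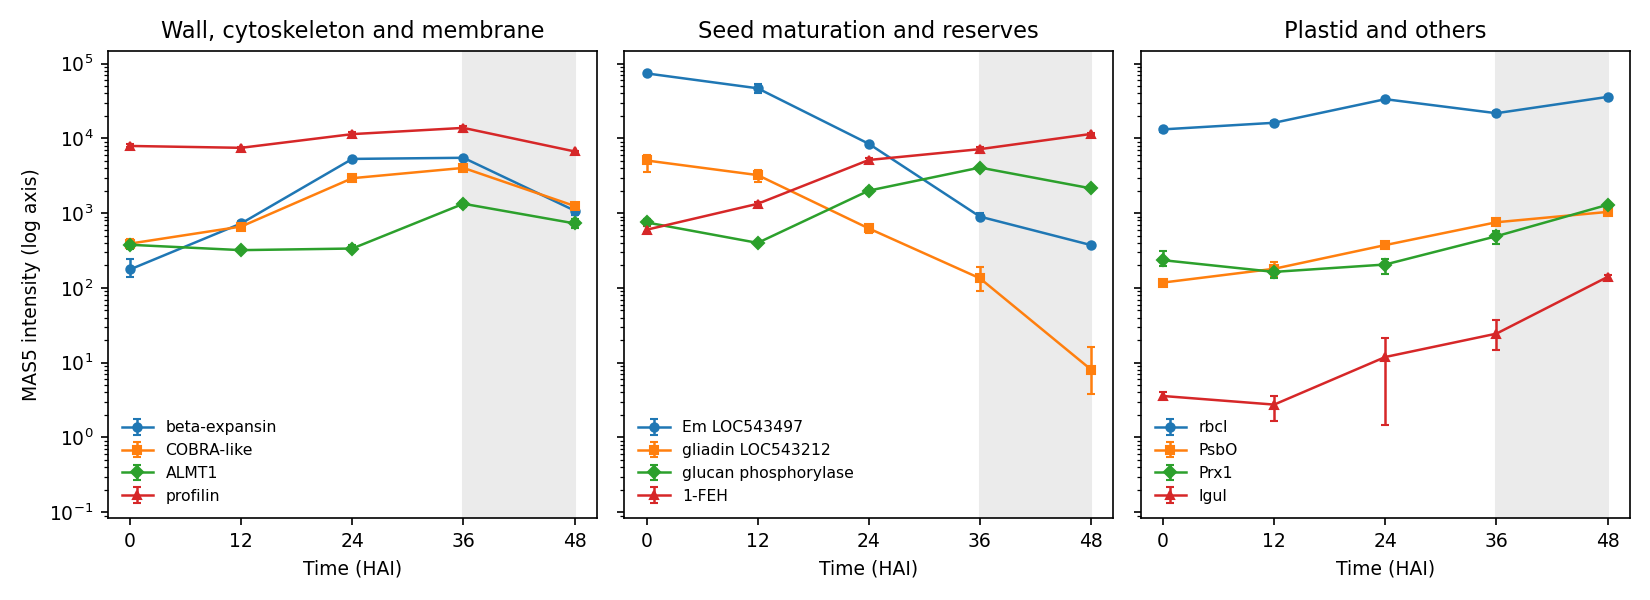
Mean MAS5 intensity on a log axis of 12 named genes over the 5 stages, with bars from the lowest to the highest of the 3 arrays and the interval from 36 to 48 HAI shaded. Beta-expansin, the COBRA-like gene, ALMT1 and profilin turn down in the shaded interval, Em and gliadin continue to fall, and Prx1, PsbO, lgul and 1-FEH stand highest at 48 HAI, where the differences of PsbO and 1-FEH from 36 HAI turn negative under poly-A scaling.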

How the data were processed

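RNA of germinating seeds was hybridized to 15 Affymetrix Wheat Genome Arrays, 3 at each of 5 stages. The authors summarized probe sets with the MAS5 algorithm of the Affymetrix Microarray Suite and deposited linear intensities. Trimmed means lay between 495 and 498 on all arrays. With 3 arrays a stage, precision is set by their number rather than by any depth. Median intensities ran from 64.4 to 101, and the 6 arrays of 36 and 48 HAI correlated at 0.959 to 0.968 within a stage and 0.942 to 0.956 between the stages.

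The 61290 rows included 175 AFFX and RPTR controls, and the other 61115 were tested. After adding 16, log2 was taken and 5 stage means were fitted in limma 3.58.1 (R 4.3.3) with moderated variances, with Benjamini-Hochberg adjustment over all 61115. The study's analysis of variance with a random variance model guided this choice. The added 16 shrinks the differences of dim probe sets. Below 32 on all arrays of a stage, a fold is given as a bound, the geometric mean of the other stage over 32. The fit was tested on simulated data. Scaling to the controls used the median log2 intensity of 36 poly-A and 27 hybridization probe sets.

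Names came from the platform's probe table (1273 probe sets) with RefSeq names and from rice matches in the study's supplementary lists. The genes named were the 12 largest rises and falls among called probe sets with a name, up to 4 called members per list, others where described, the study's key genes matched by accession or sequence cluster, and the 2 largest rises and falls over all. BRU1 of the cell wall list, PER1 and the chloroplast peroxiredoxin were added after their values were seen, as were the histones, photosynthesis genes, amy1 and the further ha1 probe set that did not pass. An item of the lists is not reported here and was left out of their counts. The members and lists were chosen with earlier results of these data known.

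Replicate numbers are shared by the stages, but same-numbered arrays did not deviate together, as given with the alternatives. Figures were drawn with Python 3.11.15 and matplotlib 3.10.9.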

Additional observations from a re-analysis of the deposited data

Results flagged for a closer look

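For some named genes and unnamed probe sets the limma contrast of the steps after and before 36 HAI passed (adjusted p from 1.6e-07 to 0.0026). They were picked among the largest changes from 36 to 48 HAI, where the contrast passed and the steps had opposite signs. The contrast contains that change, so its p-values are not a separate test. The difference between the steps, in log2, was -2.38 for the beta-expansin and -2.14 for the COBRA-like gene, where the step before 36 HAI was 0.05 and 0.46. For the 14-3-3-like protein GF14-6 it was -1.55 and -1.53 in its 2 probe sets, where the step before was 0.12 and 0.07. For the unnamed TaAffx.82031.1.S1_s_at and TaAffx.107381.1.S1_at it was -8.14 and -6.98. Both steps share the arrays of 36 HAI. No gap test for an outlying array was run, as each stage had 3 arrays.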

How the results depend on the processing

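With 1 added before log2 instead of 16, 231 probe sets were called at least 4-fold higher and 516 at least 4-fold lower, and with 64 added 15 and 149, with 525 at least 2-fold higher. Scaled to the hybridization controls, 269 were called higher, 248 of them at least 2-fold and 24 at least 4-fold, and the step difference passed in 898. Scaled to the poly-A controls, 450 were called higher and 19959 lower, 249 and 10496 at least 2-fold, 18 and 1419 at least 4-fold, and the step difference passed in 20538. It passed in 2093 with array medians set equal and 5779 with an intensity trend in the variance. Fitted on the 6 arrays alone, 1961 were called higher and 2300 lower. Of the 6503 calls 3438 were kept in the same direction, and of the 76 described singly 26 were lost. Of 8 probe sets described singly that did not pass, 1 was called on the 6 arrays alone, 1 with an intensity trend and 2 with 64 added. Poly-A scaling turned differences to -0.28 (BABY BOOM match), -0.25 (BRU1), -0.10 (1-FEH), -0.44 (linker histone), -0.050 and -0.11 (the bright rbcl probe sets), -0.20 (chloroplast peroxiredoxin), -0.37 (phenylalanyl-tRNA synthetase) and -0.58 (the ha1 probe set that did not pass).

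Without each array in turn, 2027 to 2527 probe sets were called higher and 2248 to 2574 lower at 48 HAI, 753 to 987 and 1218 to 1356 at least 2-fold, 52 to 89 and 297 to 337 at least 4-fold, and the step difference passed in 1783 to 2701. Of the 76 called probe sets described singly, 51 kept their call in all 6 fits, and the highest adjusted p was 0.171. With the replicate number as a block, 3027 were called higher and 3030 lower, the step difference passed in 3086, and 8 of the 76 calls were lost (adjusted p of 0.0516 to 0.0621). This block pairs arrays by number alone, since deviations of same-numbered arrays correlated at 0.014, -0.018 and 0.021. Quantile normalization and a filter on means over 32 moved no count over all probe sets by more than 1.5 times. Counts within lists moved more. In the redox list 3 rose with quantile normalization or equal array medians and 2 with 1 added, and in the photosynthesis list 6 rose with 64 added. With equal medians 3 of the nitrogen list and 1 transcription factor fell, with 1 added 2 of the calcium list, and on the 6 arrays alone 2 transporters and 2 of the tubulin and profilin list. Dim signal limits the folds of the 10013 probe sets that had means under 32 at all stages.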
